A study of Mus musculus with 8 samples.

Results

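The genes of voltage-gated sodium and calcium channels were taken by symbol: Scn followed by a number and a or b, Cacna1 and Cacna2, Cacnb1 to Cacnb4, and Cacng1 to Cacng8. The rule found 40 of the 32285 genes in the files. They were 10 sodium channel alpha and 4 sodium channel beta genes, 10 calcium channel alpha1, 4 alpha2delta and 4 beta genes, and 8 genes of the gamma family.

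C57BL/6JN mice aged 3 or 21 months gave the nuclei, from punches of 2 left-hemisphere regions, the anterior hippocampus and caudate putamen. Each of the 4 groups (hippocampus or caudate putamen, 3 or 21 months) had 2 libraries, and every library pooled nuclei of 1 male and 1 female of the same age, sorted on Hoechst stain. The labels name no transgene or treatment. Libraries were made with the 10x Genomics v3.1 chemistry, and the labels do not tie a replicate number to an animal, so p-values measure only the spread between these libraries.

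A voltage-gated channel opens when the membrane is depolarised. Sodium channel alpha subunits form the pore that carries the upstroke of the action potential, and beta subunits set its gating and placement. Calcium channel alpha1 subunits form the pore through which calcium enters presynaptic terminals, dendrites and muscle, while alpha2delta and beta subunits bring that pore to the membrane. Most gamma genes encode TARPs, which escort AMPA-type glutamate receptors to synapses and are named for their likeness to a muscle calcium channel subunit.

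After filtering, 6387 to 17012 nuclei and 64505372 to 186402411 UMIs (unique molecular identifiers, the counted molecules) remained per library. Any 2 libraries shared at most 0.674% of the barcodes of the smaller one. The nuclei were clustered by region without the channel genes, and clusters were called X-like from marker genes. Each cluster of dentate granule-, CA1- and CA3-like nuclei in the hippocampus and of D2-like medium spiny neurons in the caudate putamen carried 5 or 6 of its 6 class markers, and those of D1-like medium spiny neurons 4 or 5 of 6. The name of the subicular or cortical excitatory-like class of the hippocampus is uncertain. It joined clusters of 616, 483 and 305 nuclei, and the largest was led by Synpo2, Adamts19, Cit and Vipr2 and carried 3 of the 6 class markers (Tshz2, Slc17a6 and Rorb). Levels differed between these 3 clusters, so an order over class means need not hold over clusters. The caudate putamen libraries also held 68 to 207 cortical excitatory-like nuclei each. Levels are given in CPM, the count of a gene per 1000000 UMIs of all nuclei of a class in a library, as mean ± SD over the 4 libraries of a region, both ages together (n = 4). Values are compared between classes for 1 gene at a time and not between genes, because genes differ in length (median span 104706 bases for the channel genes and 12268 for all matched genes). In summed nuclei, fewer molecules per nucleus and fewer expressing nuclei cannot be told apart. Class differences in level were not tested.

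Of the 40 genes, 8 stayed under 10 CPM in each of the 21 classes with a value (10 neuronal, 11 glial or vascular): Cacna1f, Cacna1s, Cacng1, Cacng6, Scn4a, Scn7a, Scn10a and Scn11a. These include the skeletal muscle channels (Scn4a, Cacna1s and Cacng1), the retinal Cacna1f and the sensory neuron channels Scn10a and Scn11a. Of the other 32 genes, 27 had their highest mean in a neuronal class, and 14 reached 10 CPM in all 21 classes. The same counts were not taken over all genes. A level of 10 CPM in glia need not mean expression there, because neuronal genes passed it too. In hippocampal astrocyte-like nuclei Syt1 held 176.3, Camk2a 69.2 and Stmn2 12.6 CPM. The heat map of mean levels shows levels in most classes for the majority of pore genes and in few classes for Scn9a, Cacna1g, Cacna2d4 and Cacng5.

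**Figure D1:**
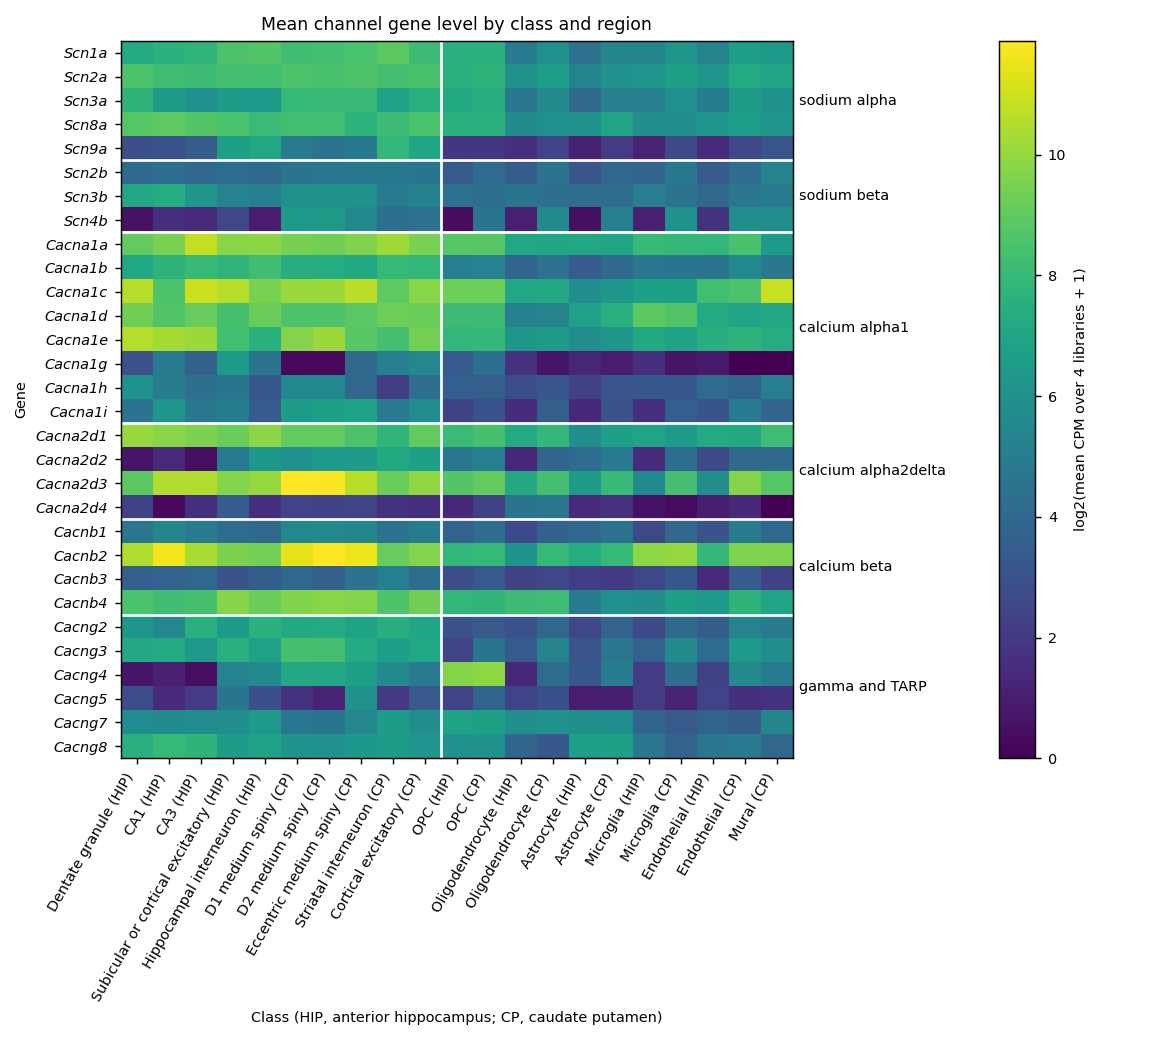
Heat map of log2(mean CPM + 1) over 4 libraries for 30 channel genes that reached 10 CPM in a class (rows, grouped by subunit family) in 21 classes (columns, HIP for hippocampus and CP for caudate putamen). Cacng4 stands out in the OPC columns, Cacng5 in the eccentric medium spiny column and Scn4b in the caudate putamen columns.

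Among the sodium channel pores, Scn2a and Scn8a were present at a broad level over the neuronal classes. Scn2a, a pore of excitatory axons, was highest in eccentric medium spiny-like neurons (394.9 ± 19.2 CPM) and lowest in CA3-like neurons (285.7 ± 17.8 CPM). D1- (382.6 CPM) and dentate granule-like neurons (379.8 CPM) lay within the eccentric spread, and CA1-like neurons (296.9 CPM) within the CA3-like one. Scn8a, the main pore of mature axon initial segments and nodes, was highest in CA1-like neurons (491.7 ± 11.6 CPM) and lowest in eccentric medium spiny-like neurons (207.7 ± 11.1 CPM). Scn1a, known for driving fast-spiking inhibitory cells, was highest by class mean in striatal interneuron-like nuclei (469.7 ± 10.2 CPM), followed by hippocampal interneuron-like nuclei (418.4 ± 21.6 CPM). It was lowest among neurons in dentate granule-like nuclei (154.8 ± 6.68 CPM). The excitatory-like cluster led by Synpo2 held 434.3 ± 38.1 CPM, between the interneuron-like means. Scn3a, best known from the developing brain, was highest in eccentric (257.3 ± 24.0 CPM), D2- (252.9 ± 18.8 CPM) and D1-like (245.4 ± 17.7 CPM) medium spiny neurons. These 3 means differed by less than 1 SD, while D2-like neurons were above D1-like ones in 4 of 4 libraries (log2 ratio 0.04 ± 0.03).

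Scn9a, a textbook gene of sensory neurons, was concentrated in fewer classes. It was highest in striatal interneuron-like nuclei at 223.0 and 248.9 CPM in the young and 222.7 and 236.6 CPM in the old libraries. Hippocampal interneuron-like nuclei held 152.5, 133.0, 125.8 and 140.6 CPM, and CA1-like nuclei 6.93 ± 1.69 CPM. Subicular or cortical excitatory-like neurons held 106.1 ± 28.0 CPM, and their cluster led by Synpo2 held 191.6 ± 17.7 CPM, above the hippocampal interneuron-like nuclei. Both interneuron classes were above the D1-like level (29.8 ± 1.80 CPM) in every library, while cortical excitatory-like nuclei of the caudate putamen ran from 8.95 to 249.3 CPM between libraries. An annotated antisense gene, Gm13629, overlaps 65947 bases of Scn9a.

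Among the sodium channel beta genes, Scn3b, a noncovalent partner of the pore, was highest in CA1-like neurons (165.3 ± 2.64 CPM). Scn2b had its highest mean in mural-like nuclei, where its spread was wide (38.8 ± 26.5 CPM), next to striatal interneuron-like nuclei (27.2 ± 1.62 CPM).

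Scn4b, which supplies the blocking particle of resurgent sodium current, split the regions. D1-like neurons held 82.5, 86.2, 74.1 and 95.6 CPM in young replicates 1 and 2 and old replicates 1 and 2, and D2-like neurons 87.8, 88.2, 77.0 and 95.2 CPM. Eccentric medium spiny-like neurons held 46.2 ± 9.83 CPM, and striatal interneuron-like nuclei 18.5 ± 5.26 CPM. The highest hippocampal class, subicular or cortical excitatory-like neurons, held 5.00 ± 0.864 CPM. No hippocampal library of any class reached the lowest caudate putamen library of any class (5.75 against 13.4 CPM).

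Scn2b and Scn4b lie side by side on chromosome 9, at chr9:45117782-45130070 and chr9:45138395-45154152 (GRCm38, GENCODE vM21), both on the plus strand and 8.32 kb apart. While Scn4b ranged from 0.437 to 87.1 CPM over the neuronal classes, Scn2b ranged from 15.0 to 27.2 CPM. Other channel genes were also neighbours: Scn3a, Scn2a, Scn1a, Scn9a and Scn7a on chromosome 2, Scn10a and Scn11a on chromosome 9, Cacng7, Cacng8 and Cacng6 on chromosome 7, and Cacng1, Cacng4 and Cacng5 on chromosome 11.

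Among the high-voltage calcium pores, Cacna1a, the P/Q-type pore of presynaptic terminals, was highest in CA3-like neurons (1794 ± 56.0 CPM), which held more than CA1-like neurons (731.5 ± 34.8 CPM) in 4 of 4 libraries. Cacna1b, the N-type presynaptic pore, was highest by class mean in hippocampal interneuron-like nuclei (304.9 ± 11.7 CPM). The cluster led by Synpo2 was within that spread, at 302.7 ± 18.35 CPM. Cacna1e, the R-type pore, was highest in dentate granule-like neurons (1535 ± 55.3 CPM) and lowest among neurons in hippocampal interneuron-like nuclei (190.9 ± 65.8 CPM), while the cluster led by Synpo2 held 127.7 ± 31.2 CPM.

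The L-type pores had broad profiles that included vessels and microglia. Cacna1c, the L-type pore of heart, vessel and dendrite, had its highest class mean in CA3-like neurons (1967 ± 201 CPM). The cluster led by Synpo2 was above that, at 2808 ± 117 CPM, while its class stood at 1508 ± 328 CPM. Mural-like nuclei of the caudate putamen, the pericytes and smooth muscle of vessels, were within the CA3-like spread at 1904 ± 170 CPM, and CA1-like neurons held 393.6 ± 48.0 CPM. Cacna1d, the L-type pore that opens at lower voltage, was highest in dentate granule-like neurons (642.3 ± 9.17 CPM) and stood at 475.8 ± 119 and 398.3 ± 55.0 CPM in hippocampal and caudate putamen microglia-like nuclei. The next glial or vascular class, OPC-like nuclei of the caudate putamen, held 285.4 CPM.

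The T-type pores, which open near rest and support burst firing, divided the neurons. Cacna1g was highest in subicular or cortical excitatory-like neurons (87.5 ± 11.9 CPM) and close to absent in D1-like (0.224 ± 0.130 CPM) and D2-like neurons (0.218 ± 0.161 CPM). Within that first class Cacna1g was uneven, at 143.5 ± 5.81 CPM in the cluster led by Synpo2, whose name is uncertain, and at 45.1 ± 4.85 and 33.9 ± 10.8 CPM in the clusters of 483 and 305 nuclei. Cacna1h was highest in dentate granule-like neurons (68.7 ± 6.60 CPM) and had its lowest neuronal class mean in striatal interneuron-like nuclei (3.63 ± 1.84 CPM), near the 2.61 ± 1.82 CPM of the cluster led by Synpo2. Cacna1i was highest in eccentric medium spiny-like neurons (116.5 ± 16.7 CPM), with D2-like neurons (107.5 ± 19.6 CPM) within that spread. D1-like neurons were lower (94.6 ± 13.0 CPM), and the eccentric level was above theirs in 4 of 4 libraries (log2 ratio 0.30 ± 0.16).

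The alpha2delta genes, whose products bind gabapentin-type drugs in the case of Cacna2d1 and Cacna2d2, each marked other classes. Cacna2d1 was highest in dentate granule-like neurons (1067 ± 48.3 CPM). Cacna2d3 was highest in D1-like neurons (3784 ± 184 CPM), and D2-like neurons (3616 ± 194 CPM) were below them in 4 of 4 libraries by a small log2 ratio (-0.07 ± 0.01). Its lowest neuronal class mean was in dentate granule-like nuclei (475.4 ± 25.5 CPM). The subicular or cortical excitatory-like cluster of 305 nuclei was lower, at 21.0 ± 9.44 CPM, and that of 483 nuclei held 1352 ± 70.2 CPM. Cacna2d2 was highest in striatal interneuron-like nuclei (149.9 ± 14.6 CPM) and reached 81.2 ± 16.7 CPM in hippocampal ones. A Cajal-Retzius-like cluster of 161 nuclei had Cacna2d2 among its 10 leading genes, but that class got no value because 1 library held 10 of its nuclei. It was almost missing from CA1- (1.72 ± 0.382 CPM), dentate granule- (0.604 ± 0.271 CPM) and CA3-like neurons (0.350 ± 0.471 CPM). Cacna2d4, known from photoreceptors, was highest in oligodendrocyte-like nuclei, at 24.4 ± 7.71 CPM in the caudate putamen and 23.1 ± 6.26 CPM in the hippocampus, and its next class, subicular or cortical excitatory-like neurons, held 9.52 ± 2.48 CPM. The cluster led by Synpo2 in that class held 19.4 ± 2.37 CPM, which overlapped the oligodendrocyte-like libraries. Lrtm2 lies inside Cacna2d4 on the other strand, and the sources used here do not say whether counting used strand.

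Of the beta genes, whose products bind the alpha1 linker inside the cell, Cacnb2 was highest in D2-like neurons, at 3678, 3799, 3266 and 4205 CPM in young replicates 1 and 2 and old replicates 1 and 2. CA1-like neurons followed at 3168 ± 112 CPM, and microglia-like nuclei held 1016 ± 97.0 CPM in the caudate putamen and 940.1 ± 137 CPM in the hippocampus. Cacnb4 was highest in D2-like neurons (874.8 ± 25.5 CPM), followed by subicular or cortical excitatory-like neurons (845.4 ± 6.31 CPM), whose cluster of 305 nuclei held 1209 ± 23.0 CPM. Cacnb1 was highest in D2- (47.9 ± 2.75 CPM) and D1-like neurons (45.8 ± 3.20 CPM), and Cacnb3 in striatal interneuron-like nuclei (33.7 ± 3.34 CPM).

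Among the TARPs, Cacng4 was highest in oligodendrocyte precursor (OPC)-like nuclei. OPC-like nuclei held 954.6, 937.4, 813.6 and 1068 CPM in the caudate putamen and 835.9, 821.9, 875.7 and 781.4 CPM in the hippocampus. The next class, D1-like neurons, held 141.7 ± 14.9 CPM, so no library of another class reached the OPC range. Cacng4 was 0.363 ± 0.317 CPM in CA3-, 0.638 ± 0.178 in dentate granule- and 1.13 ± 0.885 in CA1-like neurons.

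Cacng5, a TARP with a restricted brain distribution, was highest in eccentric medium spiny-like neurons, a minor striatal projection type apart from the D1 and D2 types, at 63.4, 69.7, 65.8 and 62.3 CPM. Subicular or cortical excitatory-like neurons followed at 23.9 ± 8.20 CPM (47.3 ± 7.31 CPM in the cluster led by Synpo2 and 0.184 ± 0.231 CPM in that of 483 nuclei), and D1- and D2-like neurons held 2.36 ± 0.377 and 1.20 ± 0.0512 CPM. Cacng8 was highest in CA1-like neurons (245.4 ± 8.08 CPM) and also stood at 106.6 ± 14.3 and 102.4 ± 6.29 CPM in astrocyte-like nuclei of the caudate putamen and hippocampus. Cacng7 was highest in OPC-like nuclei of the hippocampus (113.9 ± 14.2 CPM) and caudate putamen (106.6 ± 14.8 CPM). Cacng2, the stargazin gene, was highest in hippocampal interneuron-like nuclei (189.9 ± 7.69 CPM), with CA3-like neurons (188.7 ± 17.1 CPM) within that spread. Cacng3 was highest in D1- (346.8 ± 18.4 CPM) and D2-like neurons (332.8 ± 20.1 CPM) by class mean, while the subicular or cortical excitatory-like cluster of 483 nuclei held 378.0 ± 24.9 CPM.

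**Figure D2:**
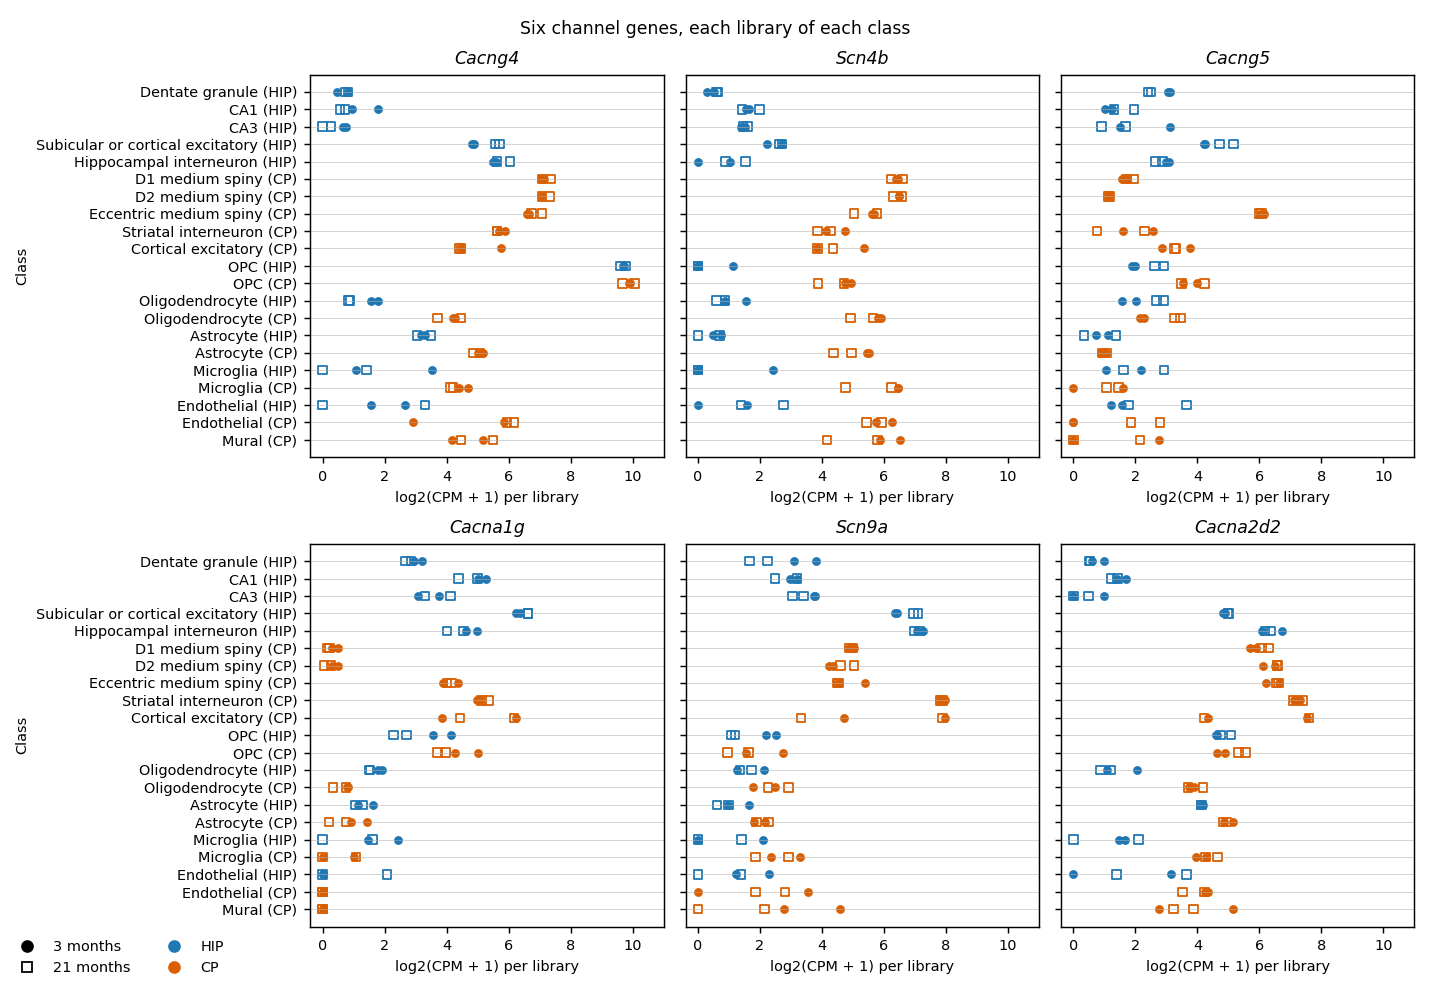
Each point is 1 library of 1 class, on a log2(CPM + 1) axis, for Cacng4, Scn4b, Cacng5, Cacna1g, Scn9a and Cacna2d2 (filled circles 3 months, open squares 21 months, blue hippocampus, orange caudate putamen). Cacng4 peaks in OPC, Cacng5 in the eccentric medium spiny row, Cacna1g in the subicular or cortical excitatory row and Scn9a in the striatal interneuron row, while the Scn4b points of the caudate putamen lie to the right of the hippocampal points in every class.

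Classes of the same library could be set side by side. The same ratios were not taken over all genes, so the counts below describe the channel genes alone. Of 28 channel genes at 10 CPM or more in D1- or D2-like neurons, none had a mean log2 ratio of 1 or more in either direction. In 4 of 4 libraries, 12 were higher in D2-like neurons and 7 lower, some by small ratios (0.014 for Cacna1d). The D2-like level was higher by 0.48 ± 0.07 (log2, mean ± SD of the 4 within-library ratios) for Cacnb2, by 0.45 ± 0.14 for Cacna2d2 and by 0.41 ± 0.02 for Cacna1e. Cacnb3 was lower in D2-like neurons, at -0.43 ± 0.09.

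Eccentric medium spiny-like neurons differed from D1-like ones by a mean log2 ratio of at least 1 in 6 of 31 genes. Among them, Cacna1g (4.55 ± 0.22) and Cacng5 (4.53 ± 0.22) were higher. Cacna1h (-1.69 ± 0.19), Cacna2d3 (-1.26 ± 0.04) and Cacng3 (-1.15 ± 0.12) were lower. These 5 kept their direction in 4 of 4 libraries.

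CA3-like neurons differed from CA1-like ones by that much in 7 of 26 genes. Cacna1c (2.32 ± 0.21), Cacng2 (2.06 ± 0.05) and Cacna1a (1.29 ± 0.06) were higher in CA3-like neurons. Cacna1i (-1.54 ± 0.56), Cacna1g (-1.39 ± 0.77), Cacnb2 (-1.27 ± 0.26) and Scn3b (-1.08 ± 0.14) were lower. Among the D2-, eccentric and striatal interneuron-like classes set against D1-like neurons, the last differed in most genes. Its count was 19 of 29 at a mean log2 ratio of at least 1 in either direction.

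**Figure D3:**
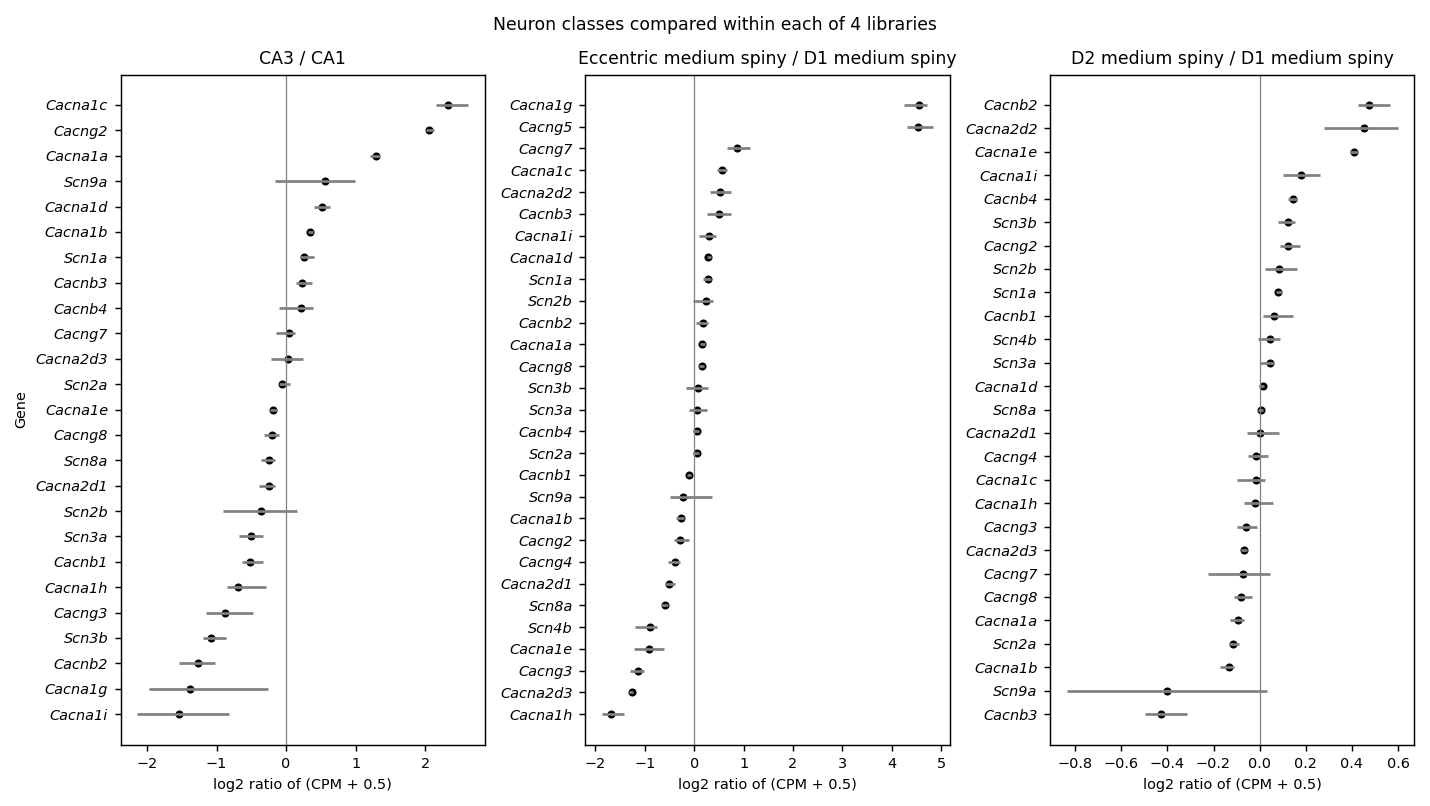
Log2 ratios of (CPM + 0.5) between 2 neuronal classes of the same library, for channel genes at 10 CPM or more in either class (points, mean of 4 libraries; lines, lowest to highest library; each panel has its own axis). Means reach 2.32 for Cacna1c in the CA3 against CA1 panel and 4.55 for Cacna1g in the eccentric panel, while the largest in the D2 against D1 panel is 0.48.

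Age was compared within classes with edgeR's quasi-likelihood test on summed counts, adjusted over all genes tested in the class, and a gene was called at an adjusted p under 0.05. Beside each count stands the share of all tested genes called in that class. In hippocampal neurons 1 of 127 gene-by-class tests of channel genes was called: 1 of 37 in dentate granule-like neurons (all genes, 4.1%), and 0 of 32 in CA1- (0.979%), 0 of 29 in CA3- (0.158%) and 0 of 29 in interneuron-like nuclei (0.0%). At an unadjusted p under 0.05, there were 12, 4, 1 and 2 channel genes in these classes, and DESeq2 called 2, 0, 0 and 0. DESeq2 gave no adjusted p for 6, 2, 5 and 0 of the channel genes tested. The median log2 change of the channel genes lay between 0.003 and 0.085 in these classes, against -0.014 to -0.001 for all genes tested.

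The called gene was Cacng5 in dentate granule-like neurons. It stood at 7.39 and 7.59 CPM in the young and at 4.69 and 4.28 CPM in the old libraries, without overlap. The log2 change was -0.69 ± 0.13 (SE), with an adjusted p of 0.0131. The adjusted p was 0.122 without old replicate 1 and 0.14 without old replicate 2. The count of called channel genes in hippocampal neurons rose to 7 without young replicate 1 and to 4 without young replicate 2, and was 0 without either old library.

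In caudate putamen neurons 0 of 100 tests of channel genes were called: 0 of 37 in D1- (all genes, 1.3%), 0 of 32 in D2- (4.7%) and 0 of 31 in interneuron-like nuclei (0.315%). At an unadjusted p under 0.05, there were 5, 7 and 5 channel genes. DESeq2 gave no adjusted p for 6, 1 and 0 channel genes and called 0, 1 and 0. The count was 1 without old replicate 1 and 1 without old replicate 2. In 1 of the 4 clusters of D1-like neurons, replicate 1 held more nuclei than replicate 2 at both ages (1546 against 448 young and 1565 against 442 old), and choroid plexus-like nuclei came from replicate 1 alone (71 young and 61 old). The smallest adjusted p values were 0.11 for Cacna2d2 in D1-like, 0.116 for Scn3b in D2-like and 0.271 for Cacng7 in interneuron-like nuclei.

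Whether the same mice gave libraries of both regions is not known, and all libraries were fitted as independent. If mice were shared, fewer independent pools than libraries stand behind the glial p-values. In glia the age effect was taken as the mean of both regions. It was called for 10 of 113 tests: 5 of 31 in oligodendrocyte- (all genes, 5.69%), 2 of 29 in astrocyte- (3.51%), 2 of 25 in microglia- (1.25%) and 1 of 28 in OPC-like nuclei (2.08%). Of the 10, 7 were higher and 3 lower at 21 months. The median log2 change of the channel genes was -0.32 in astrocyte-, -0.30 in oligodendrocyte-, -0.08 in OPC- and -0.015 in microglia-like nuclei, against -0.026 to -0.001 for all genes tested. The count was 26 without young hippocampal replicate 1, 3 without old hippocampal replicate 1, 6 when young caudate putamen replicate 1 was left out and 4 when replicate 2 of that group was. DESeq2 gave no adjusted p for 12 of 29 astrocyte-like tests of the difference between the regions' age effects. This difference was called for 0 of 113 tests in edgeR (all genes, 0.0% in astrocyte-, 0.0% in oligodendrocyte-, 0.0% in OPC- and 0.0% in microglia-like nuclei), with 6 at an unadjusted p under 0.05 and 0 called by DESeq2. It was called for 2 without young hippocampal replicate 1.

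Droplets can hold free RNA of other cells, so the summed level of 7 neuronal genes was followed in each glial class. It ran from 268.6 to 691.0 CPM in hippocampal and from 367.2 to 550.1 CPM in caudate putamen astrocyte-like nuclei, and from 384.9 to 861.0 and from 522.0 to 777.2 CPM in oligodendrocyte-like nuclei. CA1-like neurons held 6576 to 6900 CPM, and no neuronal gene was at 0 in any of these libraries. Young hippocampal replicate 2 had the highest sum of its region in astrocyte- (691.0 CPM), oligodendrocyte- (861.0 CPM), OPC- (740.8 CPM) and microglia-like nuclei (1168 CPM). Over glia, 0 of 28 tests of these genes were called for age, with 6 at an unadjusted p under 0.05 and 1 called by DESeq2. Their median log2 change was -0.49 in astrocyte-, -0.39 in oligodendrocyte-, -0.17 in OPC- and -0.15 in microglia-like nuclei, in each class below the median of the channel genes. Their part in the channel results was not tested.

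Oligodendrocyte-like nuclei had 4 channel genes that rose and 1 that fell. Cacna2d3 stood at 79.8 and 91.4 CPM in young and 207.0 and 191.8 CPM in old hippocampal libraries, and at 266.6 and 271.3 CPM in young and 326.6 and 471.3 CPM in old caudate putamen libraries. Old libraries were higher in both regions without overlap, by a log2 change of 0.94 ± 0.11 (adjusted p = 0.00134). In the neuronal classes the Cacna2d3 change lay between -0.04 and 0.23 with no call.

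Cacng5 rose in oligodendrocyte-like nuclei, from 3.08 and 1.94 to 5.44 and 6.49 CPM in the hippocampus and from 3.40 and 3.87 to 10.0 and 8.64 CPM in the caudate putamen. The change was 1.38 ± 0.22 (adjusted p = 0.00515), opposite in sign to the fall in dentate granule-like neurons. The lowest library rested on 11 counts. Cacna2d3 and Cacng5 kept their calls in oligodendrocyte-like nuclei under all 15 alternatives run. The difference between oligodendrocyte- and dentate granule-like nuclei was not tested.

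The promoter of Cacng5, a gene called for age, is shown because its RefSeq start matches the GENCODE start, so that no transcribed base is included. It is the 250 bases before the start, 5′ to 3′ on the minus strand, from RefSeq on GRCm38.p6 (chr11:107915056-107915305), with the GC box GGGCGG in capitals on either strand (CCGCCC on the other).
Cacng5: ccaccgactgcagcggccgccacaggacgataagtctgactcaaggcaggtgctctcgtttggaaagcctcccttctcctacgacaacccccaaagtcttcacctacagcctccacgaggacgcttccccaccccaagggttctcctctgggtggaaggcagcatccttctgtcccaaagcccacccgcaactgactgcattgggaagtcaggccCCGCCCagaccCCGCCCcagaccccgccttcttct
The window held 2 GC boxes and 12 CG dinucleotides. Of 32851 RefSeq promoter windows of that length, 32.7% held a GC box, and the median number of CG dinucleotides was 6.0. Of the 40 channel genes, 30 had an entry (41 windows), and 15 of those windows held a GC box.

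Cacna2d4, whose highest class was oligodendrocyte-like nuclei, fell. It stood at 30.2 and 26.2 CPM in young and 16.5 and 19.5 CPM in old hippocampal libraries, and at 28.7 and 33.0 against 16.4 and 19.6 CPM in the caudate putamen. The groups did not overlap, and the change was -0.66 ± 0.12 (adjusted p = 0.0106). The adjusted p was 0.0693 without old hippocampal replicate 1 and 0.0654 without young caudate putamen replicate 2.

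Cacna1a and Cacnb4 rose by less. Cacna1a stood at 92.7 and 138.4 against 150.9 and 166.9 CPM in the hippocampus and at 89.8 and 115.4 against 144.2 and 152.3 CPM in the caudate putamen, a change of 0.54 ± 0.12 (adjusted p = 0.0291). Cacnb4 stood at 233.0 and 262.2 against 331.8 and 300.0 CPM and at 275.3 and 276.0 against 308.6 and 323.8 CPM, a change of 0.32 ± 0.06 (adjusted p = 0.0122). All old libraries lay above the young ones of their region. The Cacna1a call was lost without old hippocampal replicate 1 (0.0794) or 2 (0.0946), young caudate putamen replicate 1 (0.0843), or old caudate putamen replicate 1 (0.0572) or 2 (0.0507). It was also lost with the gene length trend removed (0.106). The Cacnb4 call was lost without old hippocampal replicate 1 (0.0993), young caudate putamen replicate 1 (0.0714) or 2 (0.0727), and with the length trend removed (0.0525).

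In microglia-like nuclei both called genes rose. Cacna1a stood at 182.9 and 237.3 CPM in young and 360.7 and 259.6 CPM in old hippocampal libraries, and at 177.5 and 151.6 against 286.9 and 355.3 CPM in the caudate putamen. The change was 0.79 ± 0.13 (adjusted p = 0.00357), and the call was kept under all 15 alternatives run (adjusted p at most 0.048). Cacna1d stood at 350.1 and 404.5 against 608.0 and 540.6 CPM and at 375.3 and 332.5 against 454.2 and 431.2 CPM, a change of 0.49 ± 0.09 (adjusted p = 0.0113). Its adjusted p was 0.0621 without old hippocampal replicate 1, 0.0918 without young caudate putamen replicate 2, 0.133 in DESeq2, 0.223 with doublets retained and 0.194 with the length trend removed. Dcp1a overlaps Cacna1d by 11921 bases on the other strand.

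Astrocyte-like nuclei had 1 channel gene that rose and 1 that fell. Cacna1d stood at 91.9 and 109.6 against 117.4 and 116.6 CPM in the hippocampus and at 163.7 and 154.1 against 194.4 and 237.1 CPM in the caudate putamen, a change of 0.36 ± 0.08 (adjusted p = 0.0224). Its adjusted p was 0.126 and 0.0969 without old hippocampal replicate 1 or 2, 0.0613 and 0.0807 without young caudate putamen replicate 1 or 2, and 0.073 without old caudate putamen replicate 2. Scn8a stood at 64.7 and 104.5 against 47.6 and 47.0 CPM and at 128.8 and 134.9 against 105.0 and 114.8 CPM, a change of -0.52 ± 0.12 (adjusted p = 0.0495). That call was just inside the limit and was lost under 10 of 15 alternatives. They were 4 changes of processing (adjusted p 0.053 to 0.0667) and leaving out any old or caudate putamen library (adjusted p 0.203 and 0.175 for the old hippocampal, 0.11 and 0.167 for the young and 0.174 and 0.104 for the old caudate putamen libraries). The neuronal gene sum in hippocampal astrocyte-like nuclei was higher in the young libraries (342.8 and 691.0 CPM against 268.6 and 279.6 CPM). In caudate putamen astrocyte-like nuclei it was 471.3 and 495.4 CPM in the young and 367.2 and 550.1 CPM in the old libraries. Its part in the Scn8a change was not tested.

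In OPC-like nuclei Cacna1g, a T-type pore, fell from 10.8 and 16.7 to 3.87 and 5.51 CPM in the hippocampus and from 18.3 and 31.1 to 14.6 and 12.1 CPM in the caudate putamen. The change was -1.21 ± 0.32 (adjusted p = 0.0323), and the lowest library rested on 3 counts. DESeq2 gave no adjusted p for it. The call was lost without young hippocampal replicate 2 (0.237), old hippocampal replicate 1 (0.146) or 2 (0.0871), young caudate putamen replicate 2 (0.244), or old caudate putamen replicate 1 (0.0505) or 2 (0.0829), and with doublets retained (0.156).

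**Figure D4:**
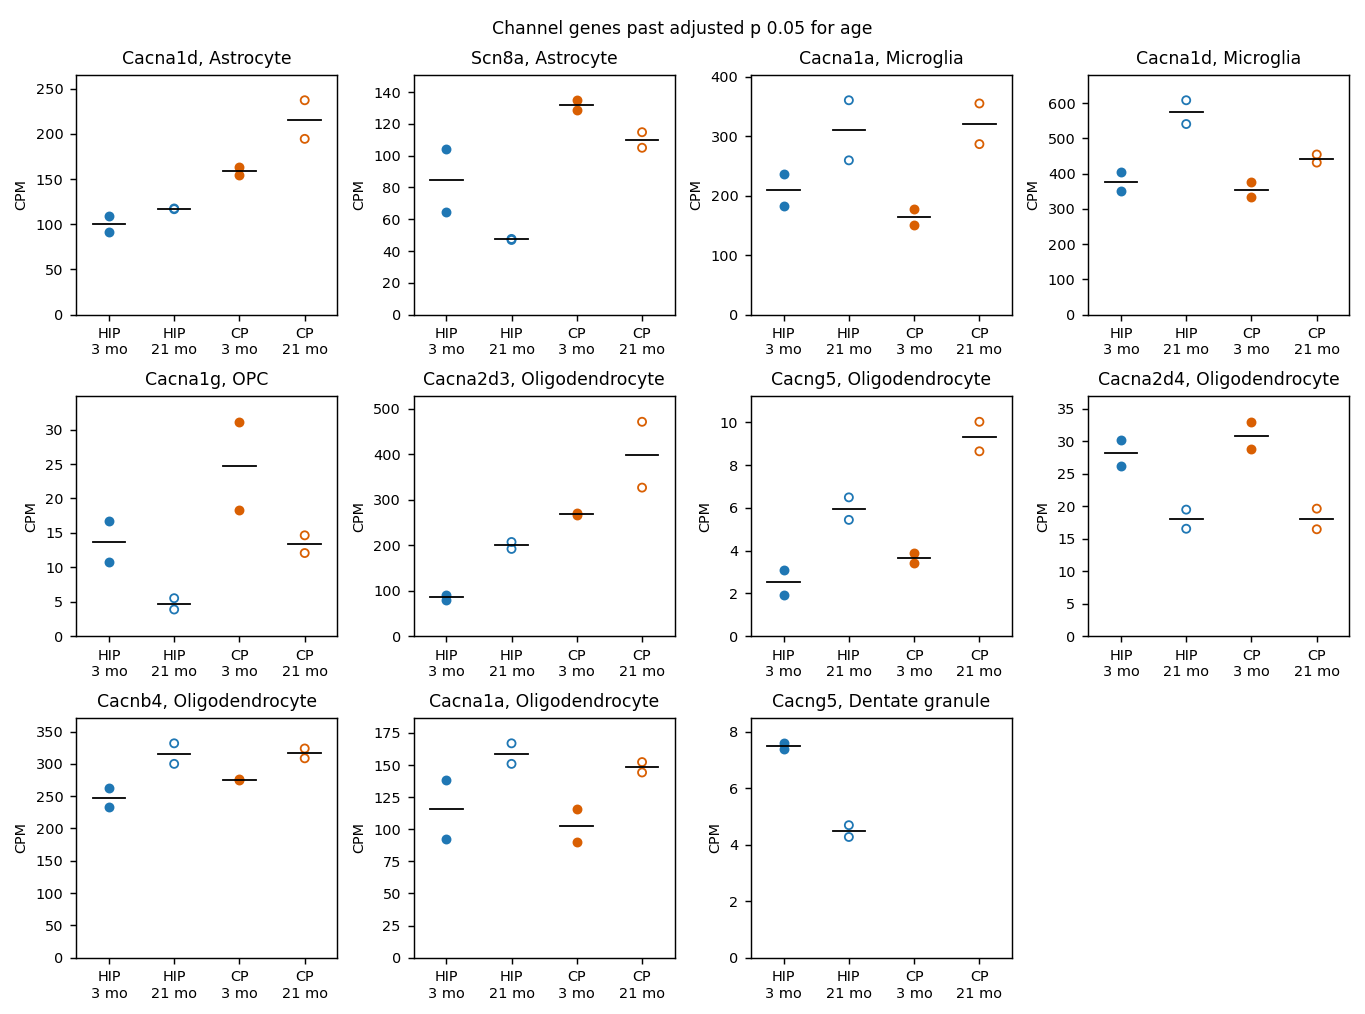
CPM by group for the 11 gene and class pairs called for age (filled circles 3 months, open circles 21 months, 1 point per library, bars the mean of 2 libraries, axes from 0). In each panel the 2 old libraries of a region lie on the same side of its 2 young ones.

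The region was compared in the same 4 glial classes, as caudate putamen minus hippocampus with both ages averaged and no pairing of mice between regions. It was called for 39 of 113 tests, 38 of them higher in the caudate putamen, and the count lay between 28 and 52 when any 1 library was left out. By class it moved more: with doublets retained 15 of 27 were called in microglia- and 14 of 30 in OPC-like nuclei, and the OPC count was 2 in DESeq2 and 2 without young caudate putamen replicate 2. In astrocyte-like nuclei 16 of 29 channel genes were called (all genes, 21.6%), all 16 higher in the caudate putamen (11.5%). In oligodendrocyte-like nuclei 12 of 31 were called (12.9%), 11 of them higher (7.9%), in OPC-like nuclei 6 of 28 (5.16%), all 6 higher (2.78%), and in microglia-like nuclei 5 of 25 (5.88%), all 5 higher (4.02%). The median log2 difference of the channel genes was 0.82, 0.57, 0.10 and 0.12 in these classes, against -0.018 to 0.004 for all genes tested.

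Neurons were compared with glia by the sign of the difference. Neuronal medians were taken over dentate granule-, CA1-, CA3- and interneuron-like nuclei of the hippocampus and D1-, D2- and interneuron-like nuclei of the caudate putamen. The eccentric medium spiny-, subicular or cortical excitatory- and cortical excitatory-like classes were left out of them. Of the 39 called differences, 31 had the sign of the difference between the median neuronal levels of the regions, as did 87 of all 113 tested. By class, 12 of 16 calls had it in astrocyte-, 11 of 12 in oligodendrocyte-, 3 of 6 in OPC- and 5 of 5 in microglia-like nuclei. The share over all genes was not taken. The neuronal gene list had a median share of its neuronal level of 10.6% in astrocyte-, 13.3% in oligodendrocyte-, 12.6% in OPC- and 16.0% in microglia-like nuclei of the caudate putamen, and of 6.79%, 7.12%, 10.0% and 11.1% in the hippocampus. For region, 2 of its 28 tests were called, 1 in each direction, and 6 by DESeq2. Its median log2 difference was 0.44 in astrocyte-, 0.37 in oligodendrocyte-, 0.002 in OPC- and -0.003 in microglia-like nuclei. The part of free RNA in the region differences was not tested.

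Scn4b was called in all 4 glial classes. Caudate putamen astrocyte-like nuclei held 44.7, 42.7, 19.7 and 30.1 CPM in young replicates 1 and 2 and old replicates 1 and 2, and hippocampal ones 0.404, 0.654, 0.611 and 0.0 CPM. Microglia-like nuclei of the caudate putamen held 87.3, 86.3, 26.0 and 74.8 CPM, against 0.0, 4.37, 0.0 and 0.0 CPM. The regions did not overlap in either class.

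The adjusted p for Scn4b was 8.45e-09 in astrocyte-, 2.86e-06 in oligodendrocyte-, 1.3e-09 in OPC- and 0.00746 in microglia-like nuclei. It was 0.0679 in microglia-like nuclei without young caudate putamen replicate 2. Counts were summed per region and divided by the summed UMIs of the class. The caudate putamen to hippocampus ratio was 67.6 in astrocyte-like nuclei (95% interval 39.2 to 128.0, exact, counting error only). It was 41.8 in oligodendrocyte- (27.0 to 68.6) and 44.7 in microglia-like nuclei (17.3 to 165.0). In OPC-like nuclei, where the hippocampus held 2 counts, the ratio was 55.5 (15.0 to 463.0). The microglia ratio rested on 4 hippocampal counts. All hippocampal counts of both classes came from young replicate 2, which also had the highest neuronal gene sum, and without it the hippocampal count was 0 and gave no ratio. The glial levels in the caudate putamen were 40.5%, 56.8%, 27.8% and 81.1% of the median neuronal level (84.6 CPM) in astrocyte-, oligodendrocyte-, OPC- and microglia-like nuclei.

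Cacng4 was higher in the caudate putamen in 3 glial classes. Astrocyte-like nuclei held 31.7 ± 3.12 CPM there and 8.58 ± 1.29 CPM in the hippocampus (log2 difference 1.82 ± 0.14, adjusted p = 2.99e-07). Oligodendrocyte-like nuclei held 17.2 ± 3.81 and 1.51 ± 0.838 CPM (3.62 ± 0.28, 9.7e-06), and microglia-like nuclei 19.7 ± 3.71 and 3.33 ± 4.87 CPM (3.09 ± 0.59, 0.00295). The microglia difference was 1.14 (adjusted p = 0.0458) with doublets retained and between 2.52 and 4.60 when 1 library was left out. The neuronal medians were 140.1 CPM in the caudate putamen and 0.882 CPM in the hippocampus. Hippocampal astrocyte-like nuclei were above dentate granule-, CA1- and CA3-like neurons and below hippocampal interneuron-like nuclei (51.3 CPM).

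Cacna2d2 was likewise higher in the caudate putamen in 3 glial classes, beside neuronal medians of 86.5 and 1.16 CPM. Astrocyte-like nuclei held 34.9, 27.8, 27.5 and 30.1 CPM there and 17.1, 16.5, 16.3 and 16.5 CPM in the hippocampus (0.82 ± 0.11, adjusted p = 0.000106). The difference was 3.10 ± 0.28 in oligodendrocyte- (2.52e-05) and 3.22 ± 0.52 in microglia-like nuclei (0.000607), where the hippocampal means were 1.61 and 1.81 CPM. The microglia difference rested on 5 hippocampal counts and was 5.19 (adjusted p = 0.000436) without old hippocampal replicate 2. In the hippocampus astrocyte-like nuclei thus held more Cacna2d2 than dentate granule-, CA1- or CA3-like neurons in every library.

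Some astrocyte differences ran against the neuronal ones. Cacna1d was at 187.3 ± 37.4 CPM in caudate putamen and 108.9 ± 11.8 CPM in hippocampal astrocyte-like nuclei (0.73 ± 0.08, adjusted p = 9.96e-06), while the neuronal medians were 376.0 and 576.4 CPM. Scn8a was at 120.9 ± 13.5 and 66.0 ± 27.0 CPM (0.89 ± 0.12, 0.000401), with neuronal medians of 315.1 and 423.3 CPM. Cacnb4 (1.13 ± 0.16), Cacna2d3 (1.50 ± 0.17) and Cacng2 (1.40 ± 0.25) followed the sign of the neurons. Their caudate putamen astrocyte levels were 7.93%, 7.11% and 8.03% of the neuronal medians, with adjusted p of 0.000567, 0.000754 and 0.000977. These 5 and Scn4b, Cacng4 and Cacna2d2 kept their calls in astrocyte-like nuclei under all 15 alternatives run. The size of 4 of them fell with doublets retained and at the lower cluster resolution, where a hippocampal cluster of 844 nuclei led by Ttr or Slc6a11 joined the astrocyte class. It was 1.03 and 1.04 for Cacng4, 0.449 and 0.481 for Cacna2d2, 0.469 and 0.465 for Cacna1d, and 0.678 and 0.645 for Cacnb4. The 8 other genes called there, Cacnb2, Cacng3, Scn9a, Cacna1h, Cacna2d1, Cacna1b, Scn1a and Scn2b, were higher by 0.55 to 1.70, with adjusted p from 0.00275 to 0.0362. Of these, Cacng3 kept its call under all 15 alternatives. The Scn9a call was lost without young caudate putamen replicate 1 (0.0661), in DESeq2 (0.0647) and with doublets retained (0.0503). The Cacna1h call was lost without old hippocampal replicate 1 (0.0754), young caudate putamen replicate 2 (0.0591) or old caudate putamen replicate 1 (0.0605). The Cacna2d1 call ended at 0.0699 and 0.0571 without old hippocampal replicates 1 and 2, and at 0.0552 and 0.0562 without young and old caudate putamen replicate 2. The same 4 libraries each ended the Cacna1b call (0.105, 0.0622, 0.0742 and 0.0503), as did retained doublets (0.0594). The Scn1a call ended at 0.121 and 0.0616 without old hippocampal replicates 1 and 2, and at 0.0536 and 0.102 without young caudate putamen ones. Those 4 libraries ended the Scn2b call too (0.119, 0.125, 0.117 and 0.105), as did old caudate putamen replicate 2 (0.0825) and retained doublets (0.0537).

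In oligodendrocyte-like nuclei Cacna2d3 (1.29 ± 0.11, adjusted p = 3.96e-05), Cacng3 (2.06 ± 0.21, 0.000167) and Cacnb2 (1.83 ± 0.28, 0.0032) were higher in the caudate putamen, as in neurons. So were Cacng2 (1.10 ± 0.22, 0.00583) and, against the sign of the neurons, Cacna2d1 (0.61 ± 0.10, 0.00219), at 236.8 ± 26.8 against 152.6 ± 26.4 CPM. The Cacnb2 call was lost without young hippocampal replicate 1 (0.0871). The 1 gene of the 39 that was lower in the caudate putamen, named after its value was seen, was Cacna1g in oligodendrocyte-like nuclei (0.606 ± 0.235 against 2.24 ± 0.473 CPM, -1.91 ± 0.39, 0.00678). The neuronal medians of Cacna1g were 0.224 and 17.1 CPM, without eccentric medium spiny-like (16.4 CPM) and subicular or cortical excitatory-like neurons (87.5 CPM). Scn1a (1.16 ± 0.21, 0.00685), Cacna1i (2.32 ± 0.46, 0.011) and Scn3a (1.08 ± 0.22, 0.0128) completed the 12. The Cacna1i difference was 3.87 (adjusted p = 0.00121) without young hippocampal replicate 2.

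In OPC-like nuclei the sign was opposite to that of the neuronal medians for 3 of 6 genes. Cacng5 was at 13.4 ± 3.65 CPM in the caudate putamen and 4.36 ± 1.86 CPM in the hippocampus (1.65 ± 0.39, adjusted p = 0.0053), and Cacna1g at 19.0 ± 8.46 and 9.21 ± 5.79 CPM (1.13 ± 0.33, 0.0293). The neuronal medians ran the other way for both, at 2.36 against 4.57 CPM for Cacng5 and 0.224 against 17.1 CPM for Cacna1g. Outside these medians, eccentric medium spiny-like neurons held 65.3 CPM of Cacng5 and 16.4 CPM of Cacna1g. Subicular or cortical excitatory-like neurons held 87.5 CPM of Cacna1g, and up to 47.3 CPM of Cacng5 by cluster. Cacna2d1 (0.28 ± 0.09, 0.0379) also ran against the neurons, while Cacng3 (2.50 ± 0.36, 2.92e-06) and Cacna2d3 (0.33 ± 0.08, 0.00711) followed them.

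Apart from Scn4b and Cacng3, the OPC calls were lost under several alternatives. In DESeq2 the adjusted p was 0.102 for Cacng5, 0.326 for Cacna1g, 0.0767 for Cacna2d3 and 0.285 for Cacna2d1, and with doublets retained it was 0.78 for Cacna2d1. With doublets retained the Cacna2d3 difference was 1.51 (adjusted p = 4.97e-07), against 0.33. Without young caudate putamen replicate 2, the adjusted p was 0.0917 for Cacng5, 0.28 for Cacna1g, 0.148 for Cacna2d3 and 0.393 for Cacna2d1. Without old caudate putamen replicate 1 it was 0.0607, 0.104 and 0.156 for Cacng5, Cacna1g and Cacna2d1. Leaving out hippocampal libraries ended the Cacna2d3 call at 0.074 (young replicate 2) and 0.058 (old replicate 2), and old caudate putamen replicate 2 at 0.0756. The Cacna1g call ended at 0.0692, 0.132, 0.077 and 0.0534 without young hippocampal replicate 1, old hippocampal replicates 1 and 2 and old caudate putamen replicate 2. The Cacna2d1 call ended at 0.0853, 0.0862, 0.149 and 0.0624 without young hippocampal replicates 1 and 2 and old ones 1 and 2.

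In microglia-like nuclei Cacng3 (47.9 ± 6.86 against 12.3 ± 7.68 CPM, 1.91 ± 0.31, adjusted p = 0.000676) and Cacng2 (16.4 ± 4.27 against 5.43 ± 5.57 CPM, 1.92 ± 0.52, 0.0337) completed the 5 called. Both were lost or turned with doublets retained, at 0.22 (adjusted p = 0.522) and -0.37 (0.487). The difference was 3.09 for Cacng3 without young hippocampal replicate 2 and 3.88 for Cacng2 without old hippocampal replicate 2, with both calls kept. The Cacng2 call was also lost without young hippocampal replicate 1 (0.0592), old hippocampal replicate 1 (0.109), young caudate putamen replicate 2 (0.212) or old caudate putamen replicate 2 (0.153), and in DESeq2 (0.16) or at the lower cluster resolution (0.178).

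**Figure D5:**
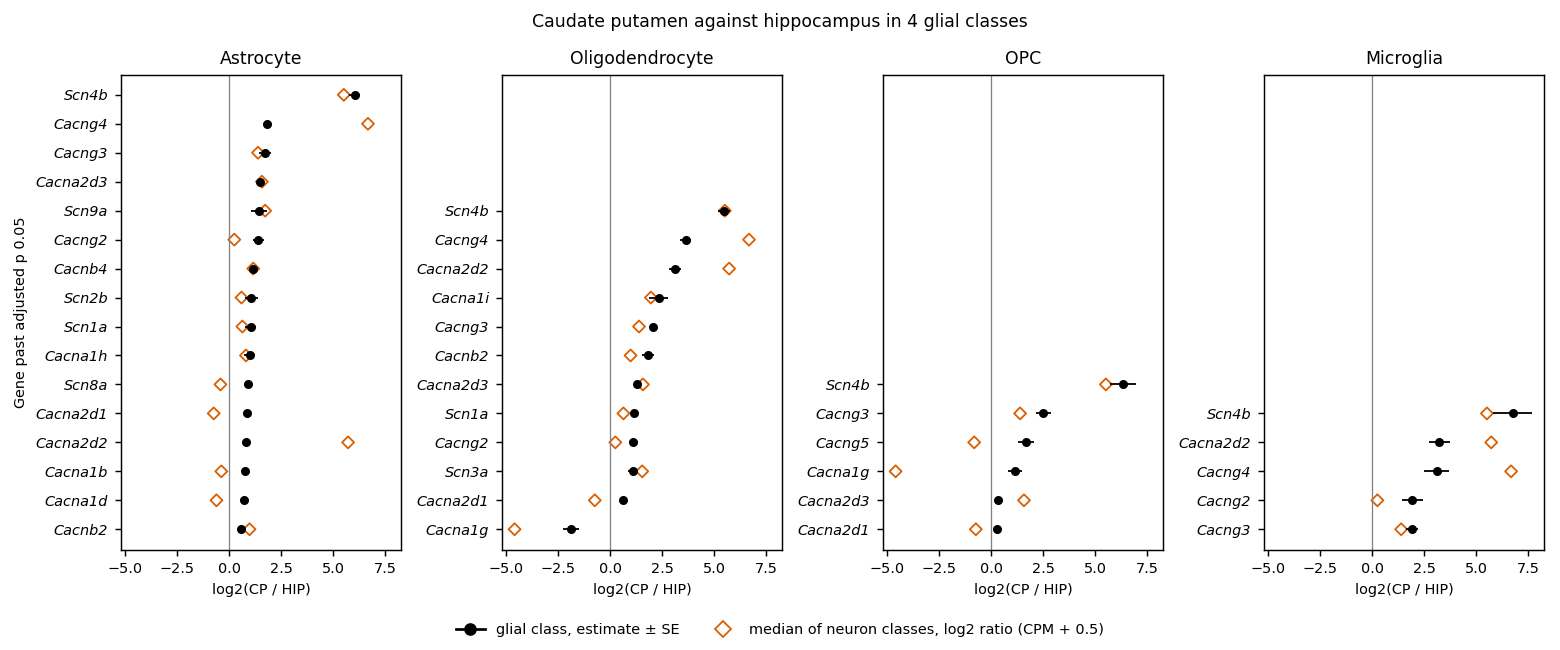
Log2 differences, caudate putamen against hippocampus, for the channel genes called in 4 glial classes (black, edgeR estimate ± SE), with the log2 ratio of the median neuronal levels beside each (orange diamonds, no error). Scn4b lies near the neuronal ratio in every panel, while Cacna1d and Scn8a in astrocyte and Cacng5 and Cacna1g in OPC panels lie on the other side of 0 from it.

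Partners of these channels were read from lists of anchors and modulators of sodium channels, partners and inhibitors of calcium channels, the NALCN sodium leak channel complex and AMPA receptor partners of TARPs. With age in hippocampal neurons, 4 of 40 tests of AMPA receptor partners were called (2 higher, 2 lower) and 3 of 39 of calcium channel partners (2 higher, 1 lower), and 4 and 2 by DESeq2, where 0.0% to 4.1% of all genes were called in a class. The smallest p values belonged to Rims2, an active zone scaffold, in dentate granule-like neurons (0.58 ± 0.05), Gsg1l, an AMPA receptor auxiliary gene, in CA1- (0.99 ± 0.13) and dentate granule-like neurons (0.54 ± 0.06), and Cnih3, an AMPA receptor cornichon, in CA1-like neurons (-0.80 ± 0.14). Of the sodium channel anchors 0 of 35 and of the NALCN complex 0 of 16 were called, with 3 and 0 at an unadjusted p under 0.05 and 0 and 0 called by DESeq2.

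In caudate putamen neurons 3 of 30 AMPA receptor partners (1 higher, 2 lower) and 2 of 29 calcium channel partners (both lower) were called with age, and 6 and 3 by DESeq2, where 0.315% to 4.7% of all genes were called in a class. Unc13a, a vesicle priming factor, fell in D2-like neurons (-0.40 ± 0.06), Cnih2, a cornichon, in D1- (-0.59 ± 0.10) and D2-like neurons (-0.59 ± 0.12), and Rem2, a small GTPase that inhibits calcium channels, in D2-like neurons (-0.56 ± 0.11). Sodium channel anchors (0 of 27) and the NALCN complex (0 of 12) had no call in edgeR, with 2 and 2 at an unadjusted p under 0.05 and 0 and 1 called by DESeq2.

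In glia with age, 1 of 37 AMPA receptor partners and 3 of 32 calcium channel partners fell and 2 of 35 sodium channel anchors rose, where 1.25% to 5.69% of all genes were called in a class. DESeq2 called 3, 3 and 0 in these lists, so neither sodium channel anchor was called by it. Gsg1l (-1.01 ± 0.15) and Unc13a (-0.69 ± 0.14) fell in astrocyte-like nuclei, and Fgf13, an intracellular sodium channel modulator, rose in microglia- (0.43 ± 0.09) and Sptbn4, an axonal spectrin, in OPC-like nuclei (0.47 ± 0.12). The neuronal gene list had a median log2 change of -0.49 in astrocyte- and -0.39 in oligodendrocyte-like nuclei, and its part in the falls was not tested. The NALCN complex had 0 of 16 called, with 3 at an unadjusted p under 0.05 and 0 called by DESeq2.

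Between regions in glia, 15 of 37 AMPA receptor partners (11 higher in the caudate putamen), 11 of 32 calcium channel partners (10 higher), 10 of 35 sodium channel anchors (9 higher) and 4 of 16 of the NALCN complex (3 higher) were called, and 14, 11, 10 and 5 by DESeq2. Of all genes, 21.6% were called in astrocyte-, 12.9% in oligodendrocyte-, 5.16% in OPC- and 5.88% in microglia-like nuclei. The smallest p values were in astrocyte-like nuclei, for Shisa9 (3.05 ± 0.11) and Gsg1l (2.23 ± 0.15), both AMPA receptor auxiliary genes, Fgf14 (0.98 ± 0.07), a sodium channel modulator, and Gria4 (1.67 ± 0.13), an AMPA receptor subunit. No list was called for the difference between the regions' age effects, at 0 of 35, 0 of 32, 0 of 16 and 0 of 37 in edgeR, with 6, 3, 0 and 6 at an unadjusted p under 0.05 and 0 called by DESeq2.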

How the data were processed

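Whole-number UMI counts per gene and nucleus were used as the authors deposited them. Per the file headers, 7 libraries came from Cell Ranger 6.1.2 and 1 (young caudate putamen replicate 2) from 7.0.0, while the submitters' processing notes name Cell Ranger 4.0.0 and mm10. Whether introns or strand entered the counting is not given in the sources used here.

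Nuclei were kept from 500 detected genes upward and up to 5% mitochondrial counts. Scrublet removed 2.548% to 15.644% of nuclei per library as doublets (for young hippocampal replicate 2, where the automatic threshold marked 71.096%, at the expected rate). Nuclei were clustered per region (scanpy 1.11.5, 3000 variable genes without the channel genes, 40 components, 20 neighbours, Leiden resolution 1.0). Classes with fewer than 20 nuclei in a library got no value, nor did unnamed clusters. Counts were summed per class and library and fitted with edgeR 4.0.16 (TMM, quasi-likelihood, Benjamini-Hochberg adjustment over all genes tested in the class, threshold 0.05) in R 4.3.3. DESeq2 1.42.0 was an alternative. Another took the replicate number as a block, and there the regions were compared at the fitted level of replicate 1 only. The fits were tested on simulated data. Gene positions were from GENCODE vM21 (GRCm38).

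Named were every channel gene called in a class, or the 8 with the smallest p, and up to 4 partner genes per comparison. The genes and lists were chosen with earlier results of these data known, and the limits for naming clusters were set after the cluster tables had been seen, before the channel genes were looked at. Libraries held 67205436 to 234811422 UMIs before filtering. Count intervals cover counting error only. The levels of 2 channel genes and 1 promoter sequence are not reported here.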

Additional observations from a re-analysis of the deposited data

How the results depend on the processing

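The total of 39 region calls stayed within 1.5 times under each of the alternatives run, but its classes did not: OPC-like nuclei went from 6 to 14 and microglia-like ones from 5 to 15 with doublets retained. Calls for age were less steady. In hippocampal neurons the 1 call became 6 with no filter on low counts, 2 in DESeq2 and 2 with the gene length trend removed, and lay between 0 and 7 with 1 library left out. In caudate putamen neurons 0 became 2 with no filter and 1 in DESeq2, and lay between 0 and 1 with 1 library left out. In glia 10 became 29 with no filter and 6 with the length trend removed, and lay between 3 and 26 with 1 library left out. The difference between the regions' age effects went from 0 to 14 with no filter and lay between 0 and 2 with 1 library left out. The cause was not tested. For Cacng2 in microglia-like nuclei the region difference turned to -0.374 with doublets retained, from 1.92.

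With the replicate number as a block, the calls for age were 5 in hippocampal neurons, 8 in caudate putamen neurons (2 in D1- and 6 in D2-like) and 12 in glia, and the calls for region 35. The block fit compared the regions at the fitted level of replicate 1 and not over both replicates. Its region calls thus concern another difference than the main ones and do not show how steady those are. In it 10 region calls were not made, 4 of them in OPC-like nuclei (adjusted p 0.133 for Cacng5, 0.261 for Cacna1g, 0.345 for Cacna2d1 and 0.794 for Cacna2d3, at a difference of 0.12). The other 6 lay at an adjusted p of 0.0502 to 0.0715, Cacng4 in microglia-like nuclei among them (2.32, adjusted p = 0.0586). Same-numbered libraries correlated at -0.1427 to 0.2638 in the hippocampus and 0.02133 to 0.3826 in the caudate putamen in their deviations from the group means. With 2 pairs per region and no label that ties the numbers to animals or batches, the pairing is not known. The called Cacna1g in OPC-like nuclei rested on as few as 3 counts in a library.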
